A study of Saccharomyces cerevisiae with 28 samples.

Results

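The comparison described here set a budding yeast strain named 4Gts against a strain named WT after 30 min of galactose, at the time point called 0 h. Both cultures were in YPA medium with 2% raffinose, had received 2% galactose, and were still at 25 °C, before their move to 36 °C. Genes were kept where all 4 libraries of the comparison, footprints and mRNA of each strain, held at least 10 RPKM (a read density, per kilobase of a gene and relative to the size of the library), which left 4477 of 6692 genes. The labels give the strains by code, YWG1245 (YAJ3) for WT and YWG1246 (YAJ41) for 4Gts, and name no allele of either. There was 1 culture a side, so no strain difference below has a replicate check or a test, and each is a description of these 2 cultures.

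The series holds 28 libraries, each culture giving ribosome footprints and total mRNA, and its title and design text concern cells depleted of the initiation factor eIF4G. In YPA the same strains were also taken before galactose, in 2% raffinose at 25 °C (pre-shift), and after 2 h at 36 °C. Cultures in SC medium at 36 °C, with 2 replicates a group, served here only to show how far replicates of 1 group can lie apart.

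eIF4G is the scaffold of the cap-binding complex eIF4F. It holds the cap-binding protein eIF4E and the helicase eIF4A on an mRNA and contacts the poly(A)-binding protein, and in yeast it is made from a pair of genes, TIF4631 and TIF4632. Ribosome footprints report how many ribosomes sit on an mRNA, so that footprints divided by mRNA (translational efficiency, TE) report ribosome load per transcript. Galactose switches on the GAL genes through the activator Gal4, and strains built for conditional protein loss often place the ubiquitin ligase gene UBR1 under a galactose promoter. The labels do not say whether these strains carry such a construct.

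The 4 libraries held 5149909 (WT) and 3418566 (4Gts) footprint reads and 2736620 (WT) and 2095069 (4Gts) mRNA reads, recovered from the steps of low RPKM values. At 10 RPKM, a gene of 1 kilobase had a counting error of 13.9% and 17.1% in footprints and 19.1% and 21.8% in mRNA, in WT and 4Gts in turn. Of the 2215 genes left out, 563 were listed at 0 in all 4 libraries, 104 had at least 10 RPKM in both WT libraries and 198 had it in both 4Gts libraries. SLD2 (10.0137 RPKM in WT footprints) and YGL194C-A (10.0113 RPKM in WT mRNA) lay just inside the limit, and BBP1 (9.98928 RPKM in WT mRNA) and MIH1 (9.98241 RPKM in 4Gts footprints) just outside it. All 8 a-cell mating genes were kept, whereas STE3, the receptor gene of alpha cells, was under 1 RPKM in every library, so both cultures had the markers of a cells.

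Differences are given as log2 of 4Gts over WT, minus the median over the kept genes, so that 1 means 2-fold higher in 4Gts. The median taken off was 0.08 for footprints, -0.07 for mRNA and 0.13 for TE. Intervals in brackets are 95% exact binomial intervals that cover the counting of reads only, and PCR reads without molecular identifiers are not independent molecules. The standard deviation (SD) of the strain difference over genes was 0.41 for footprints, 0.46 for mRNA and 0.38 for TE. Between SC replicates of 1 group the same SD was 0.60 to 0.79 for footprints, 0.62 to 0.74 for mRNA and 0.32 to 0.47 for TE. The strains at 0 h therefore lay closer together in footprints and mRNA than replicate SC cultures did, in another medium and at another temperature, and in TE they lay within the replicates' range.

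TIF4632, one of the eIF4G genes (chromosome VII, 406860 to 409604 in the R64 annotation), was the gene that set the strains apart most plainly. Its footprints stood at 79.4 RPKM in WT (1113 reads) and 0.538 RPKM in 4Gts (5 reads), and its mRNA at 81.8 RPKM (609 reads) and 0.526 RPKM (3 reads). The 4Gts culture was 148-fold lower in footprints (63.1 to 456) and 155-fold lower in mRNA (52.9 to 756), before centring. The gene was equally low in 4Gts before galactose, at 0.128 RPKM in footprints and 1.29 RPKM in mRNA, so this difference was already there at pre-shift.

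TIF4631, the other eIF4G gene (chromosome VII, 824059 to 826917), was made in both strains but with opposite differences in its layers. Footprints were 170 RPKM in WT and 133 RPKM in 4Gts, while mRNA was 174 RPKM in WT and 324 RPKM in 4Gts. The mRNA was thus higher in 4Gts (0.96 [0.86 to 1.06]) and the footprints lower (-0.43 [-0.53 to -0.33]). Its TE was 0.975 in WT and 0.412 in 4Gts, a difference of -1.37 [-1.51 to -1.23], larger than the 0.95 that separated SC replicates at most. At pre-shift the gene's TE difference was -1.55, with footprints at 305 RPKM in WT and 98.6 RPKM in 4Gts but mRNA close, at 333 and 286 RPKM. From pre-shift to 0 h the WT values were lower in both layers and the 4Gts values higher, so the mRNA difference at 0 h was not there before galactose.

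The galactose genes were at near-equal levels in both strains. GAL1, galactokinase, had 4297 RPKM of footprints in WT and 4756 in 4Gts, and 3727 and 3754 RPKM of mRNA. Its differences were 0.07 [0.05 to 0.09] and 0.08 [0.04 to 0.11], and those of GAL10, the epimerase, were -0.02 and 0.05. GAL2, the galactose permease, differed by 0.09 and 0.04, and GAL7, the transferase, by -0.37 [-0.41 to -0.34] and -0.34 [-0.38 to -0.29], the widest of the 4. The regulators GAL3 and GAL80 differed by -0.26 and 0.29 in footprints. Over the 11 kept members of the galactose list none was 2-fold apart in any measure. The lowest was PGM1, a phosphoglucomutase, at -0.64 in footprints and -0.54 in mRNA, and the highest were GAL80 in footprints and MTH1 in mRNA (0.39). The medians were -0.02 for footprints, 0.04 for mRNA and -0.01 for TE, against 0 over all kept genes by construction. SUC2, the invertase gene, which is repressed by glucose, was also level, at 5077 and 5389 RPKM of footprints.

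UBR1, the ubiquitin ligase of the N-degron pathway (chromosome VII, 859901 to 865753), behaved as the GAL genes did. It had 595 RPKM of footprints in WT and 666 in 4Gts, and 1849 and 1749 RPKM of mRNA. The differences were 0.09 [0.05 to 0.12] and -0.01 [-0.04 to 0.01]. At pre-shift UBR1 mRNA had been 47.6 RPKM in WT and 50.0 RPKM in 4Gts, so that it was 38.9-fold and 35.0-fold higher at 0 h. GAL1 mRNA was 230-fold higher than at pre-shift in WT and 106-fold higher in 4Gts, the unequal folds coming with a higher pre-shift level in 4Gts (35.3 against 16.2 RPKM).

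**Figure D1:**
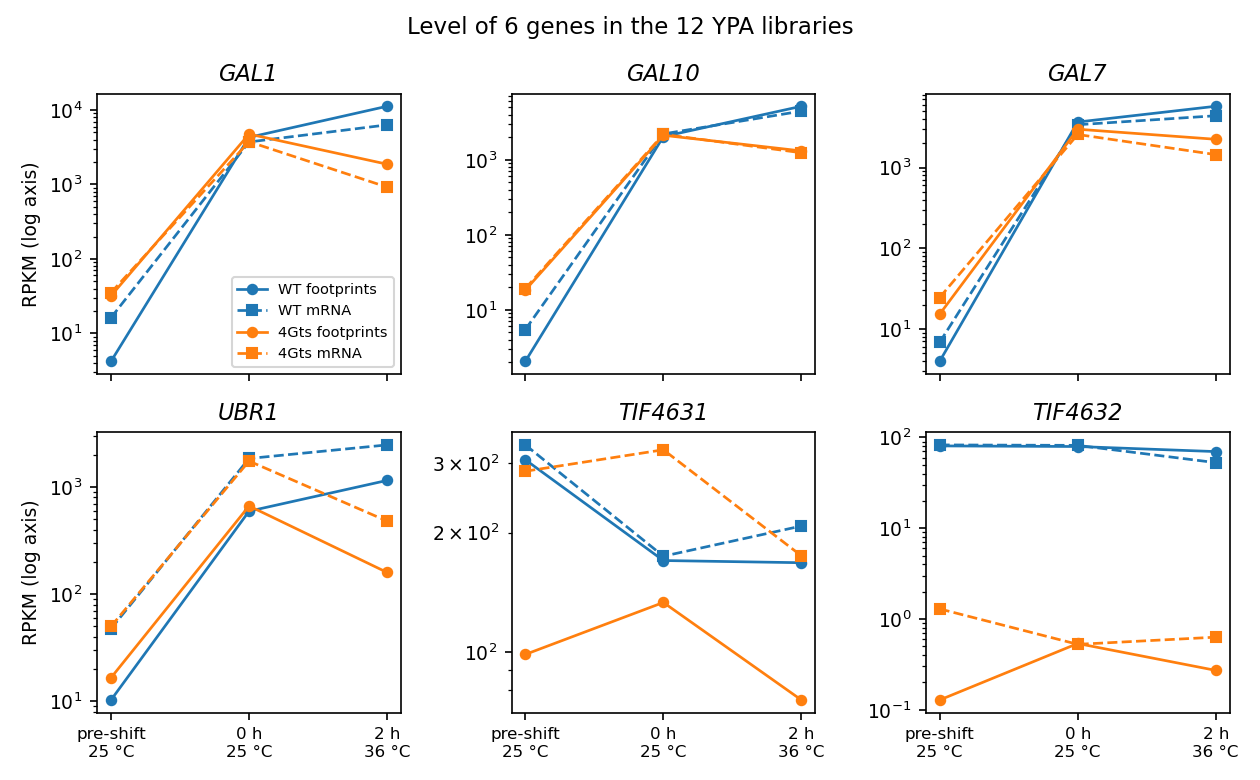
RPKM (log axis) of GAL1, GAL10, GAL7, UBR1, TIF4631 and TIF4632 at pre-shift, 0 h and 2 h in the 1 WT and the 1 4Gts culture of each stage; circles with solid lines are footprints and squares with dashed lines mRNA. At 0 h the strains' points for GAL1 (3727 and 3754 RPKM of mRNA) and UBR1 (1849 and 1749 RPKM) coincide, those for TIF4631 mRNA do not (174 and 324 RPKM), and TIF4632 is under 1.5 RPKM in 4Gts at every stage.

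Across all kept genes, 76 were at least 2-fold higher in 4Gts in footprints (1.7%) and 51 at least 2-fold lower (1.14%). In mRNA, 119 were higher (2.66%) and 55 lower (1.23%), and in TE 40 were higher (0.893%) and 39 lower (0.871%). Without centring, 99 genes were higher and 38 lower in footprints, 108 and 80 in mRNA, and 65 and 23 in TE, so the balance of the directions depends on the centring. The centred shares sum to 2.84% for footprints, 3.89% for mRNA and 1.76% for TE, where SC replicate pairs had 7.67% to 17.7%, 9.14% to 13.6% and 1.15% to 4.01%. Of called genes that could be set against SC, 26 of 53 higher and 14 of 32 lower in footprints differed by more than any SC replicate pair did for that gene. The same held for 52 of 88 and 19 of 32 in mRNA and for 21 of 23 and 26 of 30 in TE. Over all kept genes it held for 12.8%, 15.1% and 18.8%. Called genes were picked for a large difference, so a share above that of all kept genes is built in.

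Footprint and mRNA differences went together for the most part (Pearson's r = 0.63 over 4477 genes, a description, as genes of 1 pair of cultures are not replicates). Of the 119 genes with more mRNA in 4Gts, 112 also had more footprints and 44 were past 2-fold in both. Of the 55 with less mRNA, 45 also had fewer footprints, and 17 were past 2-fold in both. No gene was past 2-fold in mRNA and in TE in the same direction. As TE is footprints over mRNA, that would take a footprint difference well past 2-fold, so the definition leaves little room for such genes. TE and mRNA differences were inversely related (r = -0.53), and the mRNA value enters both with opposite sign, so counting error in it makes this value more negative.

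**Figure D2:**
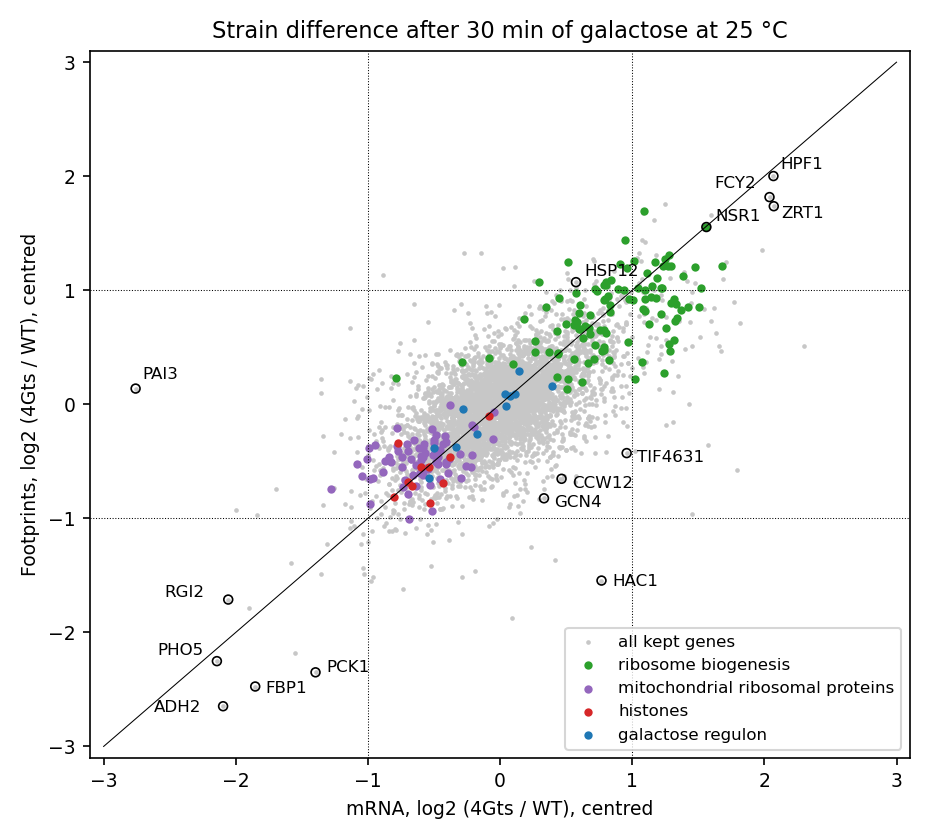
Each point is 1 of the 4477 kept genes at 0 h, with the centred log2 difference of 4Gts over WT in mRNA (x) and in footprints (y); dotted lines mark 2-fold and the diagonal marks equal differences. Ribosome biogenesis genes (green) lie up and to the right, mitochondrial ribosomal protein genes (purple) and histone genes (red) down and to the left, galactose genes (blue) near 0, and HAC1, TIF4631, GCN4 and CCW12 below the diagonal.

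The widest group difference was in ribosome biogenesis, the nucleolar factors and RNA polymerase I subunits that build ribosomes. All 105 kept members (of 119 listed) had more footprints in 4Gts, and 102 had more mRNA. Of them, 32 were at least 2-fold higher in footprints (against 1.7% of all kept genes) and 43 in mRNA (against 2.66%), and none was 2-fold lower in either. The medians were 0.82 and 0.83, about 1.77-fold and 1.78-fold, and the TE median was -0.03. The members thus made up 32 of the 76 genes higher in footprints and 43 of the 119 higher in mRNA.

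NSR1, a nucleolar protein of pre-rRNA processing, was representative of those at the upper end. It had 53.9 RPKM of footprints in WT and 167 in 4Gts, and 131 and 369 RPKM of mRNA, differences of 1.55 [1.37 to 1.75] and 1.56 [1.40 to 1.73]. RPA135, the second-largest subunit of RNA polymerase I, had 23.1 and 56.3 RPKM of footprints and 41.0 and 125 RPKM of mRNA, and its mRNA difference of 1.68 was the largest of the list. UTP4, of the small-subunit processome, had 13.3 and 45.5 RPKM of footprints, the largest footprint difference of the list (1.70 [1.42 to 1.98]). LCP5 and UTP30 went apart from the rest, LCP5 with more mRNA (1.24) than footprints (0.28), and UTP30 with less mRNA (-0.79) and a TE difference of 1.03 [0.20 to 1.88].

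The levels behind these differences were low at 0 h in both strains. The list's median footprint level was 94.6 RPKM in WT and 149 in 4Gts at pre-shift, 24.7 and 46.5 RPKM at 0 h, and 59.2 and 153 RPKM at 2 h. The median mRNA level was 98.2 and 127 RPKM, then 36.6 and 64.7 RPKM, then 90.6 and 180 RPKM. Over all kept genes the medians stayed between 52.2 and 59.9 RPKM in footprints and between 64.7 and 71.9 RPKM in mRNA. In every pair the 4Gts value was the higher, and in each strain the 0 h value was the lowest of the 3 stages. The same list moved by up to 0.996 in footprints and 1.14 in mRNA between SC replicates of 1 group, which is more than the strain difference at 0 h.

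Cytosolic ribosomal protein genes, whose products make up the ribosome itself, were far less apart. All 137 were kept, 118 had more footprints and 108 more mRNA in 4Gts, with medians of 0.20 and 0.19 and a TE median of 0.02. RPL22B, a minor paralog of the large subunit, was the only member 2-fold higher in footprints, at 293 RPKM in WT and 693 in 4Gts (1.17). RPS14B was the only one 2-fold lower, at 405 and 207 RPKM (-1.04). Such paralogs share much of their sequence, so how reads were divided between copies, which the sources used here do not state, affects their values, and the list's median moved by up to 1.20 between SC replicates.

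Initiation factors outside eIF4F bring the initiator tRNA and small subunit to the mRNA. All 21 kept members of 22 in their list had more footprints in 4Gts. The medians were 0.41 for footprints, 0.34 for mRNA and 0.17 for TE. Only 1 listed gene, TMA46, which is not itself an initiation factor, reached 2-fold in footprints, at 32.0 and 67.5 RPKM. With a pseudocount of 1 RPKM its difference was 0.98, below 2-fold. TIF11, which encodes eIF1A, had more footprints (496 and 691 RPKM) on less mRNA (471 and 365 RPKM), a TE difference of 0.72 [0.49 to 0.95]. SC replicates moved the list's medians by up to 0.63, 0.68 and 0.10, so the TE median alone lay outside that. Among the 13 kept eIF4F and cap-binding genes the TE median was -0.21 and 11 were below 0, TIF4631 lowest. CDC33, the gene for eIF4E, had 705 and 792 RPKM of footprints and a TE difference of -0.21 [-0.37 to -0.05]. TIF1 and TIF2, whose reads cannot be told apart where their sequences are identical, differed by -0.23 and 0.08 in footprints.

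Some of the genes furthest up in 4Gts were not in the ribosome biogenesis list. HPF1, a cell wall mannoprotein, had 40.4 RPKM of footprints in WT and 171 in 4Gts, and 48.8 and 196 RPKM of mRNA, 4.004-fold (2.00 [1.87 to 2.14]) and 4.19-fold (2.07 [1.90 to 2.24]) higher. FCY2, the purine-cytosine permease, had 21.9 and 81.4 RPKM of footprints and 45.9 and 180 RPKM of mRNA. ZRT1, the high-affinity zinc transporter, had 15.3 and 53.6 RPKM of footprints and 40.6 and 163 RPKM of mRNA. All 3 genes kept both layers in step, with TE differences of -0.05, -0.20 and -0.32.

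FCY2 and ZRT1 moved by at most 0.84 and 1.10 between SC replicates in either layer, less than their strain differences, whereas HPF1 was too low in SC to be compared. AAH1, adenine deaminase, had mRNA of 22.9 and 86.6 RPKM (1.98 [1.57 to 2.42]), and URA7, CTP synthase, 37.5 and 117 RPKM (1.71 [1.46 to 1.98]). Both differed by about as much between SC replicates, up to 1.79 and 2.10. HXT13, of the hexose transporter family, had 11.7 and 39.2 RPKM of footprints, and PUT1, proline oxidase, 16.8 and 54.3 RPKM. Iron uptake genes had more mRNA in 4Gts in all 13 kept members of 18, with a median of 0.64 against 0.50 at most between SC replicates. Their footprint median of 0.41 was inside the 1.05 of the SC replicates. ARN2, a siderophore transporter, was the only one past 2-fold in mRNA (78.7 and 159 RPKM).

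NCA3, a gene left out by the limit in WT, was among those found almost in 4Gts alone at 0 h. It had 0.981 RPKM of footprints in WT (5 reads) and 23.6 in 4Gts (80 reads), and 1.11 RPKM (3 reads) and 80.5 RPKM (167 reads) of mRNA. It was chosen after its values were seen. The same direction was seen at pre-shift, with mRNA of 3.09 RPKM in WT and 33.8 RPKM in 4Gts. At 2 h WT held the gene too, at 72.2 RPKM of footprints and 185 RPKM of mRNA, against 133 and 357 RPKM in 4Gts.

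The genes furthest down in 4Gts included those of growth on ethanol and of gluconeogenesis, which glucose represses and which Cat8 and Adr1 activate. ADH2, the alcohol dehydrogenase that oxidises ethanol, had 245 RPKM of footprints in WT and 41.2 in 4Gts, and 109 and 24.3 RPKM of mRNA, 6.27-fold (-2.65 [-2.91 to -2.40]) and 4.28-fold (-2.10 [-2.55 to -1.67]) lower. FBP1, fructose-1,6-bisphosphatase, had 75.4 and 14.3 RPKM of footprints and 58.2 and 15.4 RPKM of mRNA. PCK1, phosphoenolpyruvate carboxykinase, had 76.5 and 15.8 RPKM of footprints and 44.5 and 16.1 RPKM of mRNA. In each of these genes WT was above 4Gts in footprints and in mRNA.

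Not all glucose-repressed genes shared this difference. Of the 15 kept members of 26 in that list, 4 were 2-fold lower in footprints (ADH2, FBP1, PCK1 and ICL1), against 1.14% of all kept genes. IMA1 alone was 2-fold higher, against 1.7% of all kept genes. The list's median was -0.14, against a shift of up to 1.86 between SC replicates. The transcription factor genes CAT8 and ADR1 themselves differed by -0.07 and -0.14 in footprints, SUC2 by 0.01 and the lactate transporter gene JEN1 by 0.30. ADH2 is similar in sequence to ADH1, whose footprints stood at 10724 and 7492 RPKM, so its values are uncertain as far as reads were shared between the genes.

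PHO5, the secreted acid phosphatase, had 143 RPKM of footprints in WT and 31.6 in 4Gts, and 163 and 35.3 RPKM of mRNA, a difference of -2.25 [-2.51 to -2.003] and -2.14 [-2.46 to -1.84]. All 14 kept phosphate genes of 16 had fewer footprints in 4Gts (median -0.42, 3 past 2-fold) and 13 had less mRNA (median -0.30, 1 past 2-fold). Over all kept genes, 1.14% were 2-fold lower in footprints and 1.23% in mRNA. PHO12 and PHM6 were the others past 2-fold in footprints, and PHO12 has a near-identical copy, so its reads are uncertain. PHO84, the high-affinity phosphate transporter, had 576 and 443 RPKM (-0.46). SC replicates moved the list by up to 0.41 in footprints and 0.71 in mRNA. RGI2, a gene of respiratory growth, had 834 and 268 RPKM of footprints and 499 and 115 RPKM of mRNA, and CWP1, a cell wall mannoprotein, 125 and 29.0 RPKM of footprints.

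Genes for mitochondrial ribosomal proteins were lower in 4Gts as a whole group. All 71 members were kept and all 71 were below the median gene in both footprints and mRNA, with medians of -0.48 and -0.58, or 1.39-fold and 1.50-fold lower. Few were past 2-fold, 1 in footprints (RSM7, 471 and 248 RPKM) and 4 in mRNA, against 1.14% and 1.23% of all kept genes. MRPL32 had the largest mRNA difference, at 321 RPKM in WT and 127 in 4Gts (-1.28 [-1.56 to -1.002]). MRPL4 had 460 and 254 RPKM of footprints (-0.94 [-1.05 to -0.82]). Between SC replicates the list moved by no more than 0.11 in footprints and 0.14 in mRNA, so here the strain difference at 0 h was several times the replicates' shift.

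The histone genes, which are expressed in S phase, were also lower in 4Gts in all 10 members in footprints and mRNA. The medians were -0.62 and -0.57, with a TE median of 0, and no member reached 2-fold. HHF2, histone H4, had 1080.1 RPKM of footprints in WT and 649 in 4Gts, and 870.4 and 477 RPKM of mRNA. HTB1, histone H2B, was the member closest to equal, at 1797 and 1765 RPKM of footprints, while its paralog HTB2 had 1341 and 775 RPKM. SC replicates moved the list by up to 0.57 and 0.36. Since the cultures were not synchronised by any label, fewer cells in S phase and less histone mRNA per cell cannot be told apart in these bulk libraries. Of the G2 and M phase genes 17 of 18 had fewer footprints (median -0.29), and of the G1 and S phase genes 11 of 20 (median -0.03), while SC replicates moved these lists by up to 1.23 and 0.32.

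General stress genes of the Msn2 and Msn4 factors had medians of -0.26 in both layers, with 23 of 30 kept members lower in footprints and 24 in mRNA. HSP12, a small membrane chaperone, went the other way, at 511 RPKM of footprints in WT and 1132 in 4Gts (1.07 [0.94 to 1.20]), with mRNA at 269 and 382 RPKM. ALD4, mitochondrial aldehyde dehydrogenase, had 2497 and 1123 RPKM of footprints (-1.23 [-1.27 to -1.19]). SC replicates moved the stress list by up to 1.24 and 1.58. The heat shock and chaperone list was closer to equal, with 11 of 27 kept members higher in footprints, medians of -0.15 in both layers and an SC shift of up to 1.28 and 1.26. Its lowest member in footprints was HSP26, a small heat shock protein, at 113 and 45.2 RPKM (-1.39 [-1.73 to -1.06]), while HSP104, the disaggregase, had 826 and 709 RPKM (-0.30). The glycolysis and ethanol list had fewer footprints in 19 of 21 kept members and less mRNA in 18 (medians -0.44 and -0.21), ADH2 and ADH5 being the members past 2-fold in footprints, and SC replicates moved it by up to 0.40 and 0.81.

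**Figure D3:**
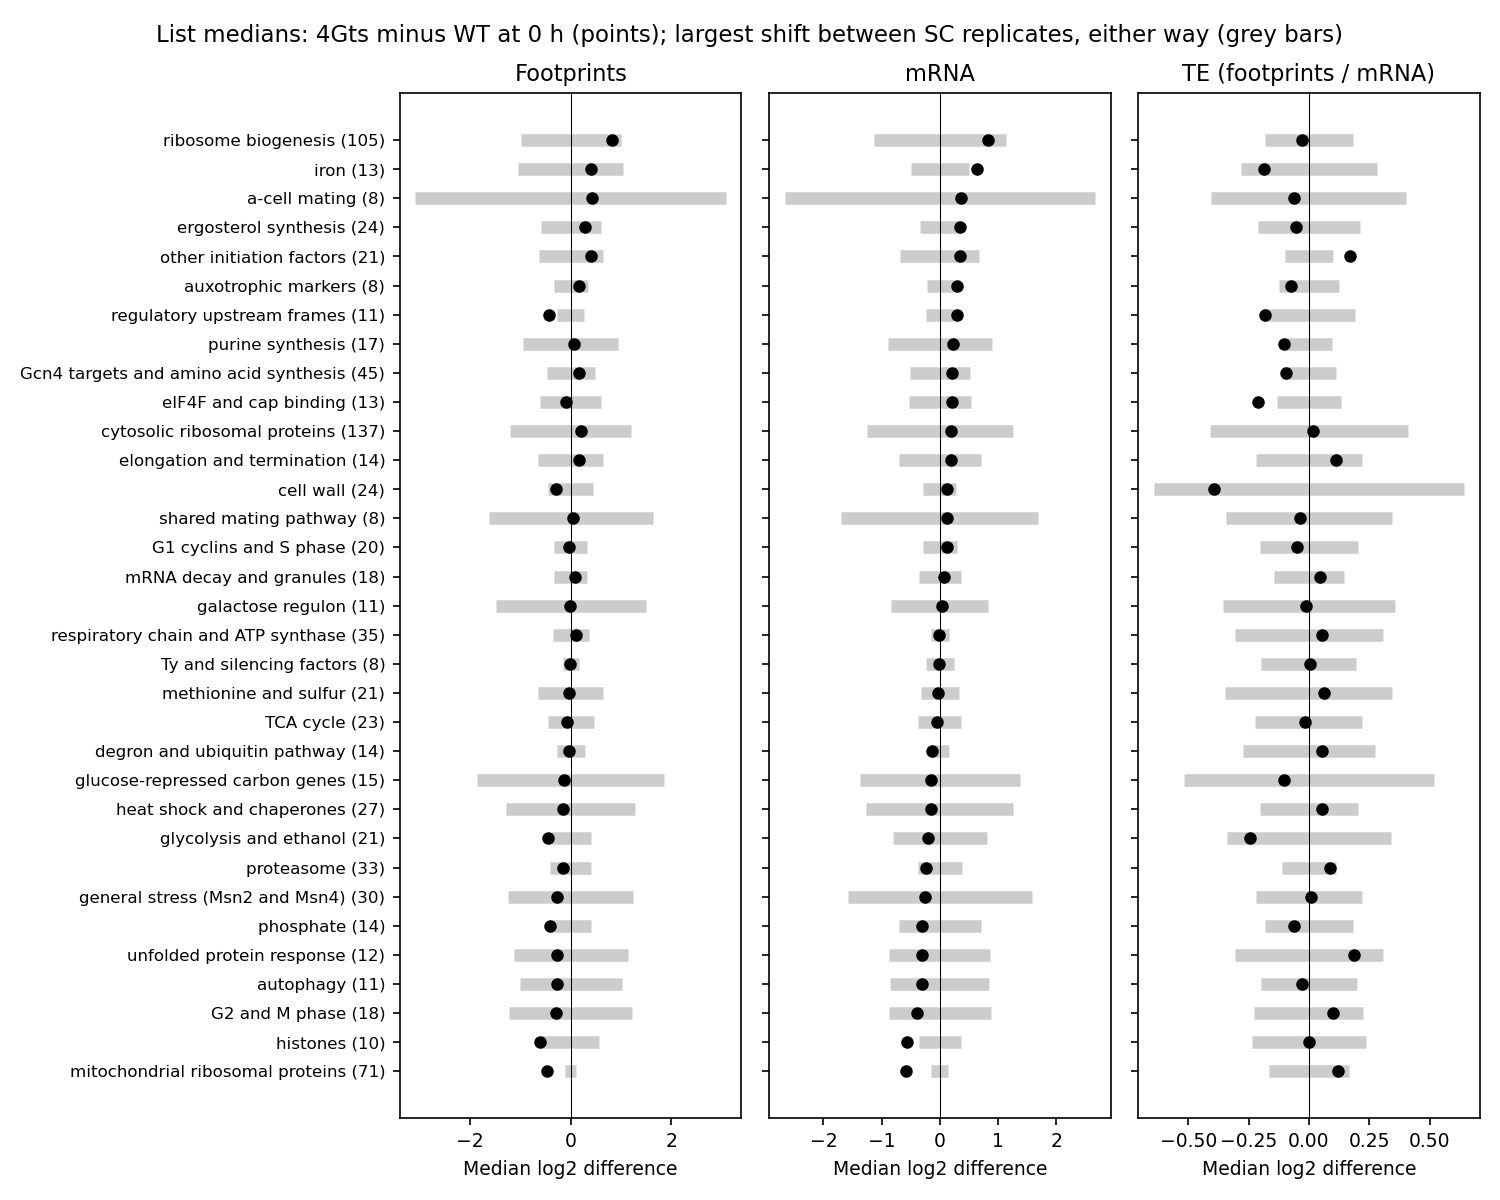
Black points give the median log2 difference of 4Gts over WT at 0 h for each list with at least 8 kept members (number in brackets) in footprints, mRNA and TE; grey bars span the largest shift of the same list's median between SC replicates of 1 group, drawn to both sides of 0. Mitochondrial ribosomal proteins and histones lie outside the bars in footprints and mRNA (-0.48 and -0.58 against 0.11 and 0.14 for the former), whereas ribosome biogenesis (0.82 and 0.83) lies inside them (0.996 and 1.14).

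TE was lower in 4Gts for some mRNAs known for translational control. Of the 11 kept genes of 15 in the list of regulatory upstream frames, short frames ahead of the coding sequence that hold back initiation at it, 4 were 2-fold lower in TE (0.871% of all kept genes were), none was higher, and 10 were below 0. The list's TE median was -0.18, inside the 0.19 that separated SC replicates. Its 4 genes past 2-fold were TIF4631, described above, GCN4, CLN3 and INO2.

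GCN4, the activator of amino acid synthesis, had fewer footprints in 4Gts (50.8 RPKM in WT and 30.2 in 4Gts) on slightly more mRNA (1256 and 1510.3 RPKM). Its TE was very low in both, 0.0404 and 0.0200, a difference of -1.14 [-1.53 to -0.76], but SC replicates differed by up to 2.14 for this gene. CLN3, the G1 cyclin, had 26.8 and 18.2 RPKM of footprints and 91.4 and 122 RPKM of mRNA (-1.10 [-1.50 to -0.71]). INO2, an activator of phospholipid synthesis, had 17.2 and 10.8 RPKM of footprints and 20.5 and 24.6 RPKM of mRNA (-1.06). Without the centring of TE by 0.13, TIF4631 (-1.24) and GCN4 (-1.01) stayed past 2-fold and CLN3 (-0.97) did not. INO2 lies nearer to the 2-fold limit than that 0.13, so its call depends on the centring too. Of the rest, LEU4 differed by -0.11, SCO1 by -0.15 and HAP4 by -0.16, so the list did not move as 1 group. Targets of Gcn4 and other amino acid genes had more mRNA in 34 of 45 kept members, with a median of 0.21, and none was past 2-fold.

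HAC1 encodes the activator of unfolded protein response genes, and its unspliced mRNA is held untranslated by its intron. It had one of the largest TE differences. Footprints were 110 RPKM in WT and 39.7 in 4Gts, and mRNA 1570 RPKM in WT and 2553 in 4Gts. TE was 0.0700 and 0.0155, a difference of -2.30, or 4.91-fold lower, larger than the 1.58 between SC replicates at most. Its reads were not whole numbers under the length used, so it has no counting interval. The other unfolded protein response genes did not share it, as the list's TE median was 0.19 and HAC1 was the only one of 12 kept members past 2-fold.

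PCL5, a cyclin that targets Gcn4 for destruction, had 34.4 and 12.7 RPKM of footprints and 222 and 173 RPKM of mRNA, a TE difference of -1.20 [-1.88 to -0.56]. CCW12, an abundant cell wall mannoprotein, had 16584 and 11120 RPKM of footprints and 12294 and 16212 RPKM of mRNA, a TE difference of -1.10 [-1.15 to -1.06] that counting does not limit, though SC replicates of this gene differed by up to 2.08. Across the 24 kept cell wall genes the TE median was -0.39, 23 were below 0 and CCW12 alone was past 2-fold, and SC replicates moved this median by up to 0.64. TRM5, a tRNA methyltransferase, had equal footprints (25.0 and 26.4 RPKM) on unequal mRNA (18.6 and 47.9 RPKM), and its difference of -1.42 [-1.95 to -0.89] compares with 0.37 between SC replicates.

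Other genes with the lowest TE in 4Gts rested on few reads or on doubtful reads. MIN7 (-2.39) had 5 and 10 mRNA reads, NFG1 (-1.95) 18 and 14, and CWC21 (-1.91), a splicing factor, 11 and 24. YMR181C had 79.3 and 32.5 RPKM of footprints and a difference of -1.76 [-2.38 to -1.15]. YGL088W overlaps the small nucleolar RNA gene SNR10, and its mRNA of 3271 and 7737 RPKM may hold reads of that RNA, whose part in the difference of -1.45 was not tested.

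Higher TE in 4Gts came mostly with less mRNA. PAI3, an inhibitor of the vacuolar proteinase A, had 78.5 and 91.1 RPKM of footprints and 73.9 and 10.4 RPKM of mRNA, a TE difference of 2.91 [1.35 to 4.93] that rests on 37 and 4 mRNA reads. TPT1, a tRNA phosphotransferase, had 28.7 and 35.0 RPKM of footprints and 45.9 and 19.98 RPKM of mRNA (1.36 [0.58 to 2.16]). ATG29, an autophagy gene that overlaps SET6, differed by 1.60 [0.73 to 2.51] and HUB1, a ubiquitin-like modifier, by 1.31 [0.29 to 2.39]. The 40 genes with higher TE had a median mRNA difference of -0.89 and a median footprint difference of 0.26, and the 39 with lower TE 0.77 and -0.57. In both sets the mRNA difference was the larger. The sets were picked on TE, which holds the mRNA value with opposite sign. mRNA also had the wider median counting interval, 0.29 against 0.25 in footprints to either side. What part of the larger mRNA difference comes from this was not tested.

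**Figure D4:**
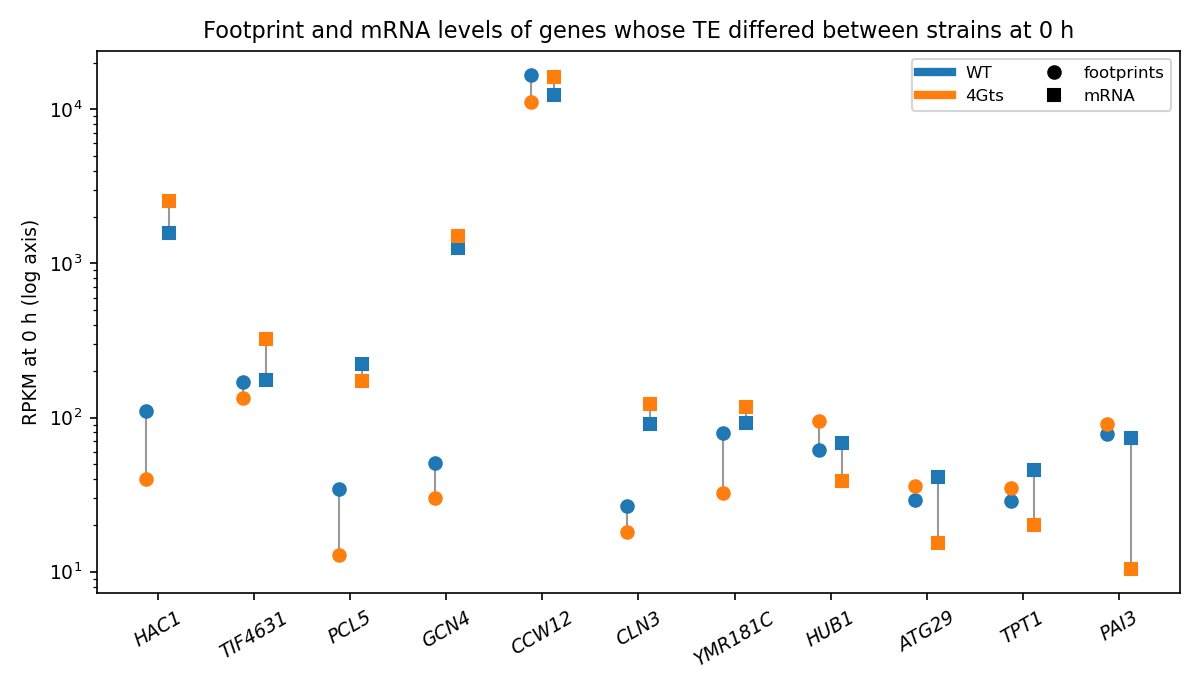
RPKM at 0 h (log axis) of 11 genes past 2-fold in TE, in the 1 WT (blue) and the 1 4Gts (orange) culture; circles are footprints, squares are mRNA, and grey lines join the strains. HAC1, TIF4631, GCN4, CCW12, CLN3 and YMR181C have fewer footprints and more mRNA in 4Gts, PCL5 has less of both, and HUB1, ATG29, TPT1 and PAI3 have less mRNA and more footprints.

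Gene length went along with TE and mRNA. The shortest kept genes, 1112 of at most 744 bases, had a median TE difference of 0.12 and mRNA difference of -0.14, and 3.60% of them were past 2-fold in TE. The longest, 1108 of at least 1836 bases, had medians of -0.03 and 0.07, and 0.361% were past 2-fold. Genes of at most 744 bases made up 34 of the 55 genes with less mRNA in 4Gts, 23 of the 40 with higher TE and 17 of the 39 with lower TE. Short genes hold fewer reads at a given RPKM, and the part of length in these counts was not tested beyond leaving such genes out. Without them, TE was 2-fold higher for 12 genes and lower for 17, and mRNA 2-fold lower for 27.

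No chromosome stood apart as a whole. Over 16 chromosomes, with 62 to 604 kept genes each, the medians ran from -0.04 to 0.03 in footprints, from -0.05 to 0.07 in mRNA and from -0.07 to 0.06 in TE. SC replicates moved such medians by up to 0.11, 0.19 and 0.19. Of the genes nearest TIF4632, PRM8 differed by -0.13 in mRNA, TYW3 by 0.37, RPT6 by -0.36 and ALG13 by -0.67, so none of these neighbours had lost its reads. TE spread over a slightly wider range of genes in 4Gts, with an SD of log2 TE of 0.82 against 0.76 in WT, and the gap of 0.06 was under the 0.12 seen between SC replicates.

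The strain differences at 0 h were in good part those of the same strains before galactose. Of genes 2-fold higher at 0 h, 73 of 76 in footprints and 114 of 119 in mRNA were on the same side at pre-shift, and of those 2-fold lower 47 of 51 and 45 of 54. Over all kept genes, 50.0% lay on either side at pre-shift, by the centring. Of the called genes, 12 of the 76 and 14 of the 119 higher ones were also past 2-fold at pre-shift, against 1.12% and 0.603% of all kept genes. Of the lower ones it was 23 of the 51 and 12 of the 54, against 2.75% and 1.83%. Genes chosen for being past 2-fold at 1 stage tend to lie closer to 0 at another. For TE, 31 of 39 and 30 of 38 were on the same side. Over all kept genes the differences at 0 h and pre-shift went together with r = 0.64 for footprints, 0.57 for mRNA and 0.36 for TE, across genes and as a description. The cultures of these stages are separate libraries, and the labels do not say whether they were drawn from 1 flask.

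At 2 h and 36 °C the strains were much further apart, with an SD over genes of 0.91 in footprints and 0.89 in mRNA. There, 56 of the 76 genes higher in footprints at 0 h were past 2-fold in the same direction and 5 in the other, and of the 50 lower genes with a value 28 and 8. Over all kept genes, 10.02% were past 2-fold higher and 16.5% past 2-fold lower in footprints at 2 h. Ribosome biogenesis followed the order of the stages, with medians of 0.48, 0.82 and 1.13 in footprints and 0.42, 0.83 and 1.04 in mRNA. Mitochondrial ribosomal proteins had -0.69, -0.48 and -1.72, so that 0 h was the stage with the smallest difference in footprints. General stress genes were likewise closest at 0 h, with -0.85, -0.26 and -2.40 in footprints and -0.66, -0.26 and -2.31 in mRNA.

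Galactose genes and phosphate genes lay on different sides of 0 at different stages. Galactose genes had medians of 0.32, -0.02 and -2.06 in footprints, with GAL1 at 2.81, 0.07 and -2.65. Phosphate genes had 0.19, -0.42 and 1.58. Histones were below 0 at all 3 stages, with -0.15, -0.62 and -0.09 in footprints, the 0 h value being the furthest from 0. These 3 stages have 1 culture a strain each, and no difference between stages was tested.

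**Figure D5:**
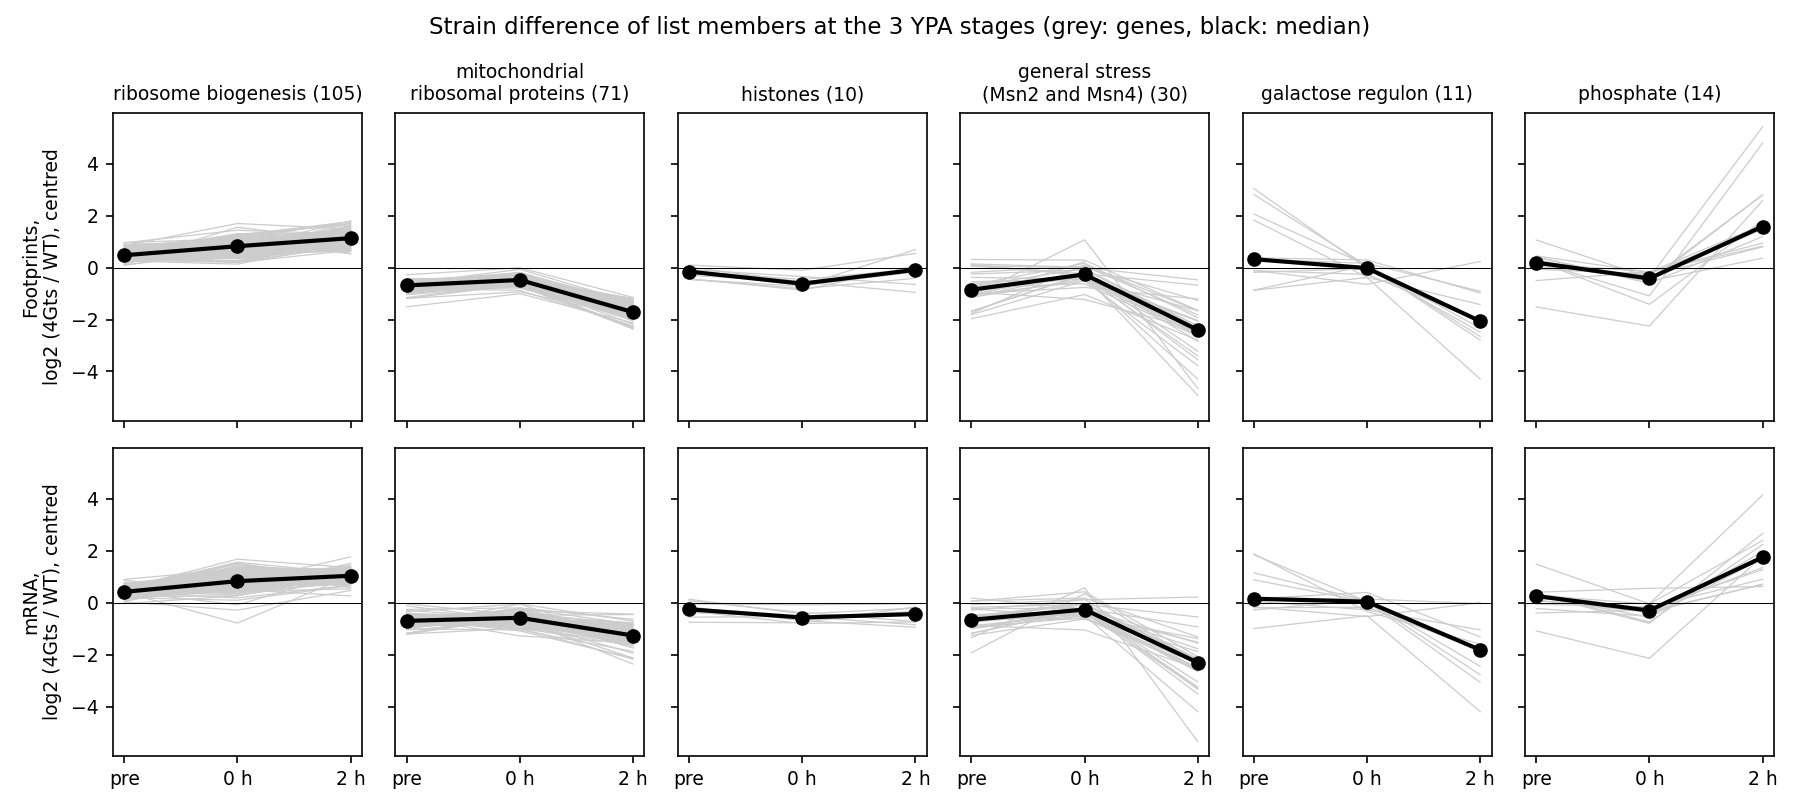
Centred log2 difference of 4Gts over WT in footprints (upper row) and mRNA (lower row) at pre-shift, 0 h and 2 h for 6 lists, with the number of kept members in brackets; grey lines are genes and black points the medians. At 0 h the galactose medians lie near 0 (-0.02 and 0.04), ribosome biogenesis lies above 0 (0.82 and 0.83) and mitochondrial ribosomal proteins (-0.48 and -0.58) and histones (-0.62 and -0.57) lie below it.

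Among single genes, HXT13 had the footprint difference that was furthest from its pre-shift value among the genes chosen by size, with -1.94 at pre-shift (0.745 and 0.209 RPKM, or 7 reads and 1 read) and 1.66 at 0 h. HPF1 went from 0.33 to 2.00 in footprints and from 0.56 to 2.07 in mRNA, and PCK1 from -0.96 to -2.35 in footprints. PAI3 mRNA went from -0.61 to -2.76 and PEX34 mRNA, a peroxisome protein's, from 0.36 to -1.13. In contrast, YMR181C kept its TE difference (-2.05 and -1.76), as did HAC1 (-2.22 and -2.30), TIF4631 (-1.55 and -1.37), CLN3 (-1.04 and -1.10) and PCL5 (-1.47 and -1.20). These 5 genes were lower in TE in 4Gts at 2 h too, by -1.92, -3.67, -1.002, -1.69 and -1.13. The naming rule took some genes for a difference furthest from or nearest to its pre-shift value. For genes taken in that way, the change or the likeness is built in. Over all kept genes, TE differences at 0 h and pre-shift went together with r = 0.36.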

How the data were processed

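Ribosome footprints and ribosomal-RNA-depleted, fragmented total RNA were sequenced from the same cultures, harvested with cycloheximide, per the labels' protocols. The submitters' processing notes name TopHat, DESeq and the build sacCer3. Versions, the counting rule and whether strand was used were not given in the sources used here.

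RPKM values for 6692 genes were deposited by the authors, 1 column per library, with TE deposited as a linear ratio. Each deposited YPA TE column equalled footprints over mRNA times 1 constant (1.42 for WT and 1.31 for 4Gts at 0 h), over the 4218 or 4219 genes compared per column, so TE was computed here from the RPKM. With 24 nt taken off each gene's length, low RPKM values were whole multiples of 1 read (97.4% of them in the WT footprints at 0 h). That gave the library totals and, for the 4196 kept genes with whole reads within 0.05, exact conditional binomial (Clopper-Pearson) intervals, joined by square-and-add for TE. With 1 culture per strain no test was made, and a gene was called at 2-fold. Differences have no pseudocount and were centred on the median over kept genes.

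Gene names and lengths came from RefSeq's R64 table (6008 of 6692 genes matched). Of 951 symbols in 34 lists 948 matched. The members and lists were chosen with earlier results of these data known.

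Genes were named by rule: a preset list, the 8 largest differences per direction and measure with an interval off 0, up to 3 per list and direction past 2-fold (otherwise the farthest), 2 on either side of 10 RPKM, and the 5 whose difference was furthest from or nearest to its pre-shift value. Other list members are given as examples, chosen after their values were seen. Alternatives were filters of 20 RPKM and none, no centring, a pseudocount of 1 RPKM, the counting interval and the deposited ratios. After the data were seen, leaving out overlapping or unlisted genes and leaving out genes of at most 744 bases were added. SC replicates gave the spread between cultures. Functions were tested on simulated reads. Python 3.11.15, pandas 2.3.3, numpy 2.4.6, scipy 1.17.1 and matplotlib 3.10.9 were used.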

Additional observations from a re-analysis of the deposited data

Results flagged for a closer look

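The genes given here were past 2-fold one way at 0 h, with a counting interval off 0, and past 2-fold the other way at another stage. Each value rests on 1 culture per strain and stage, and the difference between stages was not tested.

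The footprint difference of HXT13, 4Gts over WT on the log2 scale, was -1.94 at pre-shift and 1.66 at 0 h, which is 3.61 apart. The pre-shift value rests on 7 reads in WT and 1 read in 4Gts. That of HSP12 was -1.10 and 1.07, which is 2.17 apart. From 0 h to 2 h the step in footprints was -5.73 for HSP12 (from 1.07 to -4.66), -3.16 for HXT13 (from 1.66 to -1.50) and -3.23 for IMA1, an isomaltase gene (from 1.09 to -2.14). The step in HXT13 mRNA was -5.01 (from 1.60 to -3.42).

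The phosphate genes went the opposite way from 0 h to 2 h. The step was 4.83 for PHO5 footprints (from -2.25 to 2.58), 3.94 for PHO5 mRNA (from -2.14 to 1.79), 5.88 for PHO12 footprints (from -1.09 to 4.79) and 3.23 for PHM6 footprints (from -1.42 to 1.81). PHO12 has a near-identical copy, so its reads are uncertain, and its 2 h value rests on 3 and 32 reads. In mRNA the step was 3.53 for STR3, of sulfur metabolism (from -1.34 to 2.19), and 2.66 for PEX34 (from -1.13 to 1.53). In TE it was -2.62 for ATG29 (from 1.60 to -1.02) and -2.34 for HAB1 (from 1.09 to -1.25). HAB1 had 3 footprint reads in 4Gts at 2 h.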

How the results depend on the processing

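Filters moved the counts of genes past 2-fold most. With at least 20 RPKM in all 4 libraries, 39 genes were higher and 30 lower in footprints, 62 and 29 in mRNA, and 19 and 19 in TE. With no filter the counts were 181 and 173, 212 and 163, and 135 and 166. Without centring, TE was higher for 65 genes and lower for 23, against 40 and 39. The authors' deposited ratios, over 4218 genes, gave 16 with higher TE. Without genes of at most 744 bases, an alternative chosen after seeing the data, TE was higher for 12 genes and lower for 17, and mRNA lower for 27. Fewer genes tested, and low genes with few reads, are built into these filters; other causes were not tested. The other 26 of 44 counts stayed within 1.5 times. Of 297 list medians recomputed, 295 moved by less than the SC replicates did, as did all 12 chromosome values and the 3 values of the TE spread, and of 310 values of named genes 17 dropped below 2-fold and none changed sign. No paired analysis was possible because each strain had 1 culture in YPA at 0 h. The main limits are the single culture per strain, a median counting interval of 0.25 (footprints), 0.29 (mRNA) and 0.39 (TE) to either side, and SC replicates, of another medium and temperature, as the only view of the spread between cultures.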

Other observations

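Groups not described above had medians of differing size at 0 h, with few or no members past 2-fold. Respiratory chain and ATP synthase genes had medians of 0.10 in footprints and -0.01 in mRNA over 35 genes, none past 2-fold, where the same genes had -1.13 and -1.57 at 2 h. The TCA cycle genes had -0.08 and -0.04 over 23 genes. Among them MDH2, the cytosolic malate dehydrogenase of gluconeogenesis, was over 2-fold lower in footprints, at 71.0 and 32.4 RPKM. Proteasome genes had -0.16 and -0.23 over 33 genes, and ergosterol synthesis genes 0.28 and 0.35 over 24, with ERG5 at 188 and 375 RPKM of footprints. Autophagy genes were lower in all 11 kept members in both layers, with medians of -0.26 and -0.31, and ATG8 had 204 and 129 RPKM of footprints. SC replicates moved the autophagy list by up to 1.01 in footprints and 0.85 in mRNA. They moved the ergosterol list by up to 0.60 and 0.335, so only its mRNA median, 0.348, lay outside. For the proteasome list the shifts were up to 0.41 and 0.37, and for the TCA cycle list up to 0.46 and 0.37. Respiratory chain and ATP synthase genes moved by up to 0.36 and 0.16. The 0 h medians of these lists lay inside their shifts.

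Of the 8 a-cell mating genes, 6 had a difference above 0 in footprints and 6 in mRNA, with medians of 0.43 and 0.37. SC replicates moved this list by up to 3.08 and 2.67, far more than these medians. STE2, the alpha-factor receptor, had 153 and 307 RPKM of footprints and 404 and 715 RPKM of mRNA (0.93 and 0.89). The 2 members below 0 in footprints were BAR1 and AGA2. BAR1, the protease that degrades alpha factor, had 57.6 and 43.9 RPKM of footprints, and AGA2, an agglutinin subunit, 155 and 108 RPKM. URA3, a common marker gene, had level footprints (242 and 239 RPKM) on unequal mRNA (146 and 254 RPKM), a TE difference of -0.94 [-1.21 to -0.68]. ROQ1, which encodes a small protein known to alter the substrates of Ubr1 under stress, had 89.4 and 48.3 RPKM of footprints and mRNA of 55.3 and 14.8 RPKM, from 44 and 9 reads.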
